A study of Mus musculus with 12 samples.

Results

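The 9 genes described here encode proteins of the smooth muscle contractile apparatus. They were chosen by name as contractile genes of myofibroblasts and smooth muscle: the actins Acta2 and Actg2, the actin binding proteins Tagln, Cnn1 and Cnn2, the myosin light chain Myl9, the tropomyosins Tpm1 and Tpm2, and the leiomodin Lmod1. They are 9 of the 54532 genes listed in the RNA-seq table of the series. All 9 were among the 12871 genes whose level reached 1 FPKM in at least 3 libraries. FPKM counts fragments per kilobase of gene, so that gene length is taken out, with a scaling for depth. How the depth was scaled is not given in the sources used here.

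The series compared mesenchymal stem cells (MSCs) that carry or lack the chromatin remodeller Chd7. MSCs were flushed from the marrow of C57BL/6 mice aged 4 weeks and used at passage 3. Mice of the WT groups were Chd7 fl/fl, so both Chd7 alleles were floxed but no Cre was present, and mice of the KO groups were Prx1-cre;Chd7 fl/fl. Prx1-cre is active in early limb mesenchyme and its descendants and removes exon 2 of Chd7, so cells of other origin in the cultures keep the gene. Cells were taken 5 days after induction in either of 2 media. Osteogenic induction used β-glycerophosphate at 10 mM, dexamethasone at 10 nM and ascorbic acid at 50 µM. Adipogenic induction used isobutylmethylxanthine at 0.5 µM, dexamethasone at 1 µM and insulin at 10 µg/ml. Each of the 4 groups (osteogenic WT, osteogenic KO, adipogenic WT and adipogenic KO) had 3 libraries, and the labels do not say whether these came from separate mice, so p-values measure the spread between these libraries.

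Smooth muscle cells contract when myosin pulls on thin filaments built from smooth muscle α- and γ-actin. Tropomyosins lie along these filaments, calponins and transgelin bind them, leiomodin starts new ones, and the regulatory light chain switches the myosin on when it is phosphorylated. Cultured stromal cells and myofibroblasts make many of the same proteins as stress fibres, and the genes are classic targets of SRF (serum response factor) with its partners of the myocardin family, which bind the CArG box, and of TEAD factors with YAP or TAZ, which bind the MCAT element.

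Because these genes share regulators, the DNA before their starts was searched for both elements. RefSeq windows on GRCm38.p6, from 250 bases before to 50 bases after the start, matched 7 of the 9 genes (none for Actg2 and Tagln). A CArG box was present in Cnn2 and Myl9, against 1.63% of all 32851 windows. With 1 substitution allowed in the middle 6 bases it was also present in Acta2, which gave 3 of 7 genes against 9.98% of all windows. The MCAT letters CATTCC, read on both strands, were present in Acta2, Tpm1 and Lmod1, against 14.7% of all windows, and Acta2 held both elements, as did 1.62% of windows. The windows of Cnn1 and Tpm2 held neither spelling. A match is a description of the letters and not a measured site. Starts here are those of RefSeq. The stretches of Acta2 and Tpm1 lie inside the gene positions given further below, which are from GENCODE. The stretches below are those with a match, 5′ to 3′ on the strand of the gene, with the matching letters in capitals.
Acta2, chr19:34255394-34255533, minus strand, with an MCAT match followed by a pair of CArG matches with 1 substitution: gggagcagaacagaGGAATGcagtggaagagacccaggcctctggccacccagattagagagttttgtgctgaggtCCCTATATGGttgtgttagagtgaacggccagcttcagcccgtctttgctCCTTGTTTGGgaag
Myl9, chr2:156775284-156775383, plus strand, with an exact CArG match followed by a match with 1 substitution: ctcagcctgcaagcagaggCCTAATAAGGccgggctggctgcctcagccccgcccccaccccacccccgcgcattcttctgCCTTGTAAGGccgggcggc
Cnn2, chr10:79988520-79988569, plus strand, with an exact CArG match: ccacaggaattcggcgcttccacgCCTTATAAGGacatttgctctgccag
Tpm1, chr9:67049244-67049293, minus strand, with an MCAT match: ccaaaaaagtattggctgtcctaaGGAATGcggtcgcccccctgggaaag
Lmod1, chr1:135324663-135324712, plus strand, with an MCAT match: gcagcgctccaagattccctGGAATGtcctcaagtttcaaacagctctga

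Each library held 17490797 to 21093450 fragments on genes, as recovered from the steps between low values, so that for a gene of 1 kilobase 3 fragments equal 0.143 to 0.185 FPKM. Chd7 itself, counted over all its exons, stood at 2.64, 2.67 and 2.77 FPKM in osteogenic WT and at 2.03, 2.35 and 2.28 FPKM in osteogenic KO libraries. The groups did not overlap, and the difference of -0.20 (SE 0.08, log2(FPKM + 1)) had an adjusted p of 0.160 in limma. In adipogenic medium Chd7 stood at 2.26, 1.81 and 2.23 FPKM in WT and at 2.03, 2.35 and 2.48 FPKM in KO libraries, so the libraries labelled KO were not lower there (0.09, adjusted p = 0.428). The table gives no level of exon 2 alone, so KO below means the libraries labelled KO. Of 12 stromal markers, 10 were above 1 FPKM in every library, whereas Thy1 stayed between 0.206 and 1.03 FPKM and Lepr between 0.450 and 1.13 FPKM. All 12 macrophage markers were above 1 FPKM in every library, and their sum ran from 6308.2 to 18013.2 FPKM. Adipogenic WT library 2 stood apart from libraries 1 and 3 of its group, with a macrophage sum of 8239.8 against 17763.9 and 18013.2 FPKM. In bulk RNA, fewer cells of a type and less RNA per cell cannot be told apart.

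In osteogenic medium all 9 contractile genes were higher in KO than in WT libraries, and for each of the 9 every KO library lay above every WT library. At an adjusted p under 0.05, 6 of the 9 rose, namely Acta2, Actg2, Tagln, Cnn2, Myl9 and Tpm1, with ratios of mean FPKM from 1.33 to 1.62. Over all genes tested 4.94% were called higher, and 21.0% had KO libraries that all lay above all WT libraries. The median difference was 0.53 on the log2(FPKM + 1) scale for the 9 genes and -0.01 for all genes tested.

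Acta2 (smooth muscle α-actin, chr19:34241090-34255590 on GRCm38, the build of all gene positions here) was the most abundant of the 9. It stood at 719.9, 760.6 and 728.2 FPKM in osteogenic WT and at 993.4, 949.5 and 994.7 FPKM in osteogenic KO libraries. The lowest KO library was thus well above the highest WT library, and the difference was 0.41 (SE 0.11, adjusted p = 0.0479, limma as throughout). Actg2 (smooth muscle γ-actin, chr6:83512905-83536265) was present at a much lower level, with 61.4, 67.2 and 63.0 FPKM in WT and 101.2, 101.9 and 106.5 FPKM in KO libraries. Its difference of 0.68 (SE 0.14, adjusted p = 0.0162) was the highest of the 9, so Actg2 went from 8.67% ± 0.15 to 10.5% ± 0.31 (SD, n = 3) of the Acta2 level.

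Among the proteins that bind actin filaments, Cnn2 (calponin 2, which is also made outside muscle, chr10:79988584-79996062) stood at 100.8, 93.9 and 104.6 FPKM in WT and at 154.1, 137.5 and 144.8 FPKM in KO libraries. Cnn1 (calponin 1, the smooth muscle calponin, chr9:22099216-22109630) was less abundant, with 15.7, 16.6 and 15.1 FPKM in WT and 22.8, 22.4 and 24.8 FPKM in KO libraries. Both pairs of groups were apart, yet only Cnn2 passed the test (0.54, SE 0.10, adjusted p = 0.00703), while Cnn1 narrowly missed it (0.53, SE 0.15, adjusted p = 0.0544). Tagln (transgelin or SM22α, chr9:45929619-45936058) was listed far lower than the others, at 2.27, 2.04 and 1.99 FPKM in WT and 3.19, 3.48 and 3.34 FPKM in KO libraries. Its difference was 0.48 (SE 0.10, adjusted p = 0.0135) and rested on 68 to 125 fragments per osteogenic library. Of the exonic length of Tagln, 67.9% also lies in exons of genes on the opposite strand, mostly the antisense gene Gm48529, which was itself at 1.15 to 2.22 FPKM. Whether reads were counted by strand is not given in the sources used here, so the level of Tagln is uncertain. None of the other 8 genes shares exonic bases with another gene, and only 7 of 2146 windows of 50 bases in Acta2 transcripts recur in another gene (Actg1 and its pseudogenes).

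Myl9 (the smooth muscle regulatory myosin light chain, chr2:156775420-156781658) stood at 152.5, 151.8 and 151.2 FPKM in osteogenic WT and at 230.9, 216.0 and 230.1 FPKM in KO libraries. The WT libraries were nearly equal, and the difference was 0.57 (SE 0.15, adjusted p = 0.0380). Tpm1 (tropomyosin 1, chr9:67022590-67049406) stood at 84.2, 83.3 and 88.0 FPKM in WT and at 128.4, 124.8 and 133.6 FPKM in KO libraries. It had the lowest adjusted p of the 9 in this medium (0.59, SE 0.10, adjusted p = 0.00667). Tpm2 (tropomyosin 2, chr4:43514711-43523765) started at a like level, 81.3, 84.4 and 85.2 FPKM, and reached 117.7, 110.4 and 120.2 FPKM in KO libraries. Its groups were apart as well, but the test was missed (0.47, SE 0.15, adjusted p = 0.0814). Lmod1 (leiomodin 1, a nucleator of smooth muscle thin filaments, chr1:135324807-135368065) differed least, with 7.28, 6.48 and 6.55 FPKM in WT and 7.68, 7.59 and 8.83 FPKM in KO libraries (0.22, SE 0.14, adjusted p = 0.420).

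The osteogenic calls lay close to the threshold. With each library rescaled to the same sum of FPKM, no gene of the 9 was called by limma, although 8 had an unadjusted p under 0.05 and the differences ran from 0.21 (Lmod1) to 0.68 (Actg2), and limma voom on the recovered fragments called 6. Leaving out any single osteogenic library left 2 or 3 of the 9 called, and leaving out adipogenic WT library 2, which widens the spread shared by all groups, left 8, adding Cnn1 (adjusted p = 0.00158) and Tpm2 (adjusted p = 0.000729).

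**Figure D1:**
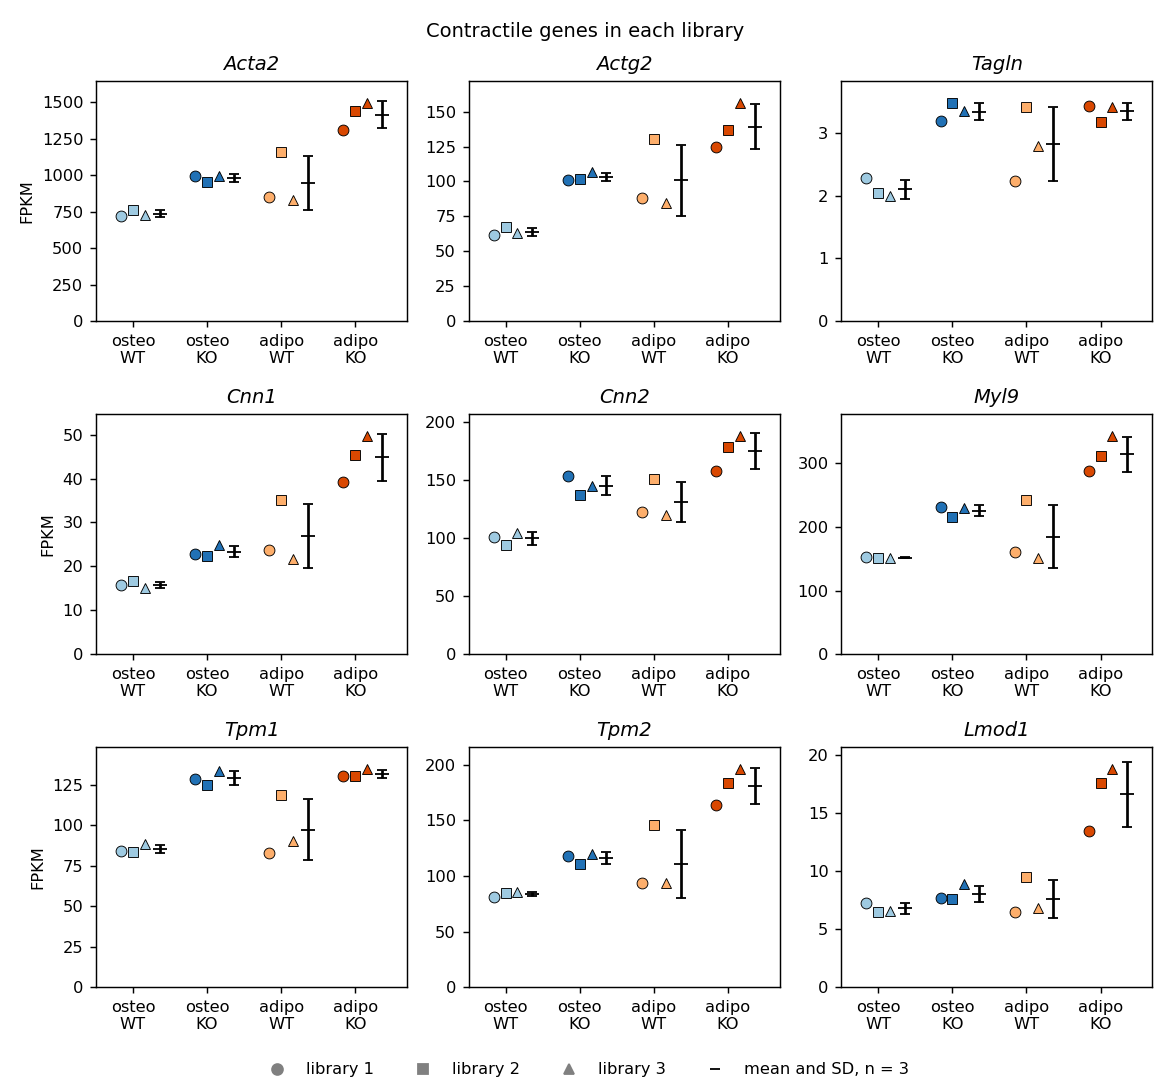
Level of each contractile gene in FPKM (vertical axes from 0) in the 4 groups on the horizontal axis; symbols are the 3 libraries of a group and the bar beside them is their mean with SD. In all panels the osteogenic KO libraries lie above the osteogenic WT libraries, and adipogenic WT library 2 (square) lies above libraries 1 and 3 of its group.

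In adipogenic medium the 9 genes were again higher on average in KO libraries, and 8 of them rose at an adjusted p under 0.05, with Tagln the exception. Ratios of mean FPKM ran from 1.19 (Tagln) to 2.18 (Lmod1). Over all genes tested 16.7% were called higher, and 20.2% had KO libraries that all lay above all WT libraries, as 7 of the 9 did. The median difference was 0.59 for the 9 genes and -0.01 for all genes tested.

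Acta2 stood at 848.1, 1159 and 829.8 FPKM in adipogenic WT and at 1309, 1437 and 1494 FPKM in adipogenic KO libraries. WT library 2 lay between the other WT libraries and the KO libraries, and the groups did not overlap (0.59, SE 0.11, adjusted p = 0.00319). Actg2 stood at 88.2, 130.1 and 84.4 FPKM in WT and at 124.6, 137.2 and 156.3 FPKM in KO libraries. Here WT library 2 was above KO library 1, so the groups overlapped, and the call (0.48, SE 0.14, adjusted p = 0.0269) was lost when WT library 1 (adjusted p = 0.0937), WT library 3 (0.0962), KO library 2 (0.0641) or KO library 3 (0.1005) was left out.

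Cnn1 stood at 23.8, 35.1 and 21.7 FPKM in WT and at 39.2, 45.5 and 49.7 FPKM in KO libraries, without overlap (0.74, SE 0.15, adjusted p = 0.00477). Cnn2 stood at 122.9, 151.0 and 119.9 FPKM in WT and at 158.0, 178.8 and 188.3 FPKM in KO libraries, again apart but by a smaller margin (0.42, SE 0.10, adjusted p = 0.00860). Tagln stood at 2.23, 3.41 and 2.79 FPKM in WT and at 3.43, 3.17 and 3.41 FPKM in KO libraries. These groups overlapped and the test was missed (0.20, SE 0.10, adjusted p = 0.145), whereas without WT library 2 the difference was 0.31 (adjusted p = 0.00720).

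Myl9 stood at 160.7, 241.6 and 151.0 FPKM in WT and at 288.6, 311.6 and 343.1 FPKM in KO libraries (0.79, SE 0.15, adjusted p = 0.00266). Tpm2 stood at 93.3, 145.6 and 93.2 FPKM in WT and at 163.7, 183.2 and 196.2 FPKM in KO libraries (0.73, SE 0.15, adjusted p = 0.00447). Neither gene had overlapping groups, and in both the KO libraries exceeded WT library 2 by less than they exceeded the other WT libraries. Tpm1 stood at 83.0, 118.4 and 90.4 FPKM in WT and at 130.1, 130.4 and 134.6 FPKM in KO libraries (0.45, SE 0.10, adjusted p = 0.00882). Lmod1 stood at 6.44, 9.50 and 6.82 FPKM in WT and at 13.4, 17.6 and 18.8 FPKM in KO libraries. That was the widest separation of the 9 genes, with a difference of 1.04 (SE 0.14, adjusted p = 0.000552).

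**Figure D2:**
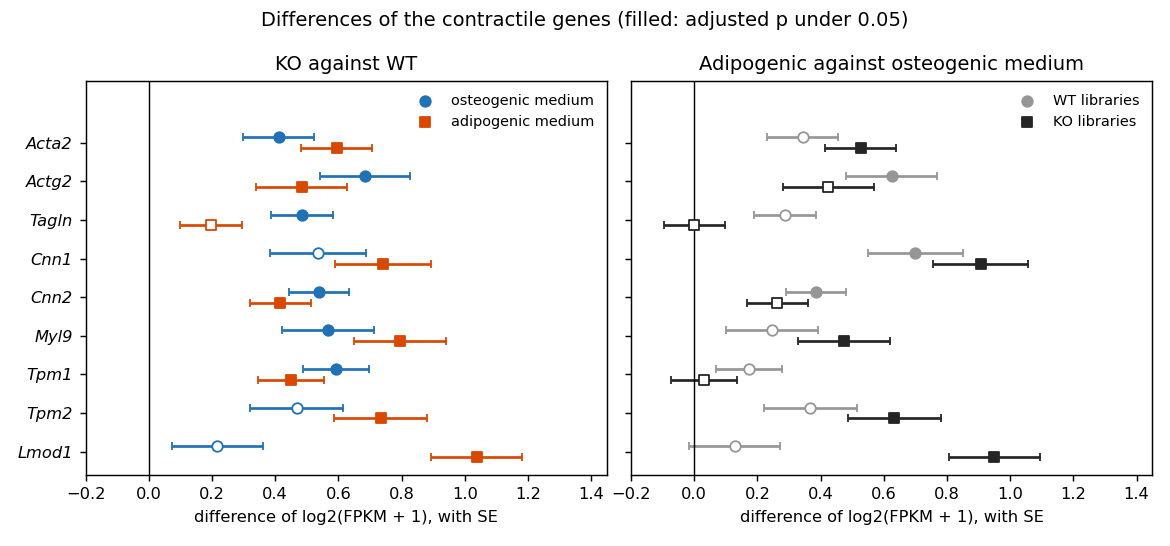
Difference of log2(FPKM + 1) with its SE for each contractile gene (horizontal axis, 0 marked), KO minus WT in both media on the left and adipogenic minus osteogenic medium in both genotypes on the right; filled points passed an adjusted p of 0.05 in limma. All points of the left panel lie above 0, from 0.20 to 1.04, with Lmod1 having the largest gap between the media.

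The adipogenic differences depended on which WT libraries were compared. WT library 2 was above libraries 1 and 3 for all 9 genes, by a ratio to their mean of 1.24 (Cnn2) to 1.56 (Tpm2), and over all genes tested 43.1% were highest in library 2 of the group. Without libraries 1 and 3, a setting chosen after the values were seen that leaves 1 WT library and assumes that it varies like the other groups, 4 of 9 were called. These were Lmod1 (0.73, adjusted p = 0.0109), Myl9 (0.38, adjusted p = 0.0117), Acta2 (0.28, adjusted p = 0.0212) and Tpm2 (0.31, adjusted p = 0.0371), while Actg2 was at 0.09 and Tagln at -0.02. Without library 2 instead, all 9 were called. Fitted to the 6 adipogenic libraries alone, 2 of the 9 were called, Lmod1 and Myl9. Rescaled to the same sum of FPKM, the median of all genes moved to 0.14, and the 9 genes lay 0.20 (Tagln) to 1.07 (Lmod1) above that median, 8 of them called.

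In adipogenic medium the KO libraries had more of the contractile transcripts and a lower summed level of the macrophage markers, a sum of which Lyz2 (lysozyme) was the largest part. The macrophage sum was 17763.9, 8239.8 and 18013.2 FPKM in WT and 7731.6, 6308.2 and 6473.7 FPKM in KO libraries. In both adipogenic groups the library with the highest sum had the lowest Acta2. The osteogenic groups did not share this order. Osteogenic WT library 2 had the highest sum of its group (12598.1 FPKM) and also the highest Acta2 (760.6 FPKM). Osteogenic KO library 1 had the highest sum (14404.4 FPKM) with Acta2 at 993.4 FPKM, while library 2 had the lowest Acta2 (949.5 FPKM). In osteogenic medium the sum was 12115.0 to 12598.1 FPKM in WT and 14085.7 to 14404.4 FPKM in KO libraries, and Lyz2 alone was 8956.6 to 9355.4 FPKM in WT and 11033.2 to 11248.8 FPKM in KO libraries. Most markers did not follow that sum, since 3 of the 12 differences were above 0, beside 48.3% of all genes tested, and the median was -0.14. Of the 12 macrophage markers, 2 were called lower (Csf1r and Cd163) and 1 higher (C1qa) in osteogenic KO libraries, beside 4.15% and 4.94% of all genes. In adipogenic KO libraries 6 were called lower and 2 higher (C1qa and Cd163), beside 16.5% and 16.7% of all genes. The number called higher there was near the share of all genes, and the median was -0.61. The markers did not move together within adipogenic WT either, as library 2 was the highest of its group for Cd68 (861.4 against 516.9 and 490.7 FPKM), Mrc1 (107.0 against 36.8 and 35.7 FPKM) and Fcgr3 (200.1 against 158.4 and 151.8 FPKM). The part of macrophage content in the contractile gene levels was not tested. The summed stromal markers were 1281 to 1454 FPKM in osteogenic WT and 1435 to 1584 FPKM in osteogenic KO libraries, and 1640 to 1916 FPKM in adipogenic WT and 1771 to 1824 FPKM in adipogenic KO libraries, so that the genotypes overlapped in both media in this sum, to which Col1a1 contributed most. Of the 10 stromal markers tested, 4 rose in osteogenic KO libraries (Cxcl12, 0.64, Col1a2, 0.28, Itgb1, 0.22, and Prrx1, 0.20), beside 4.94% of all genes. All KO libraries lay above all WT libraries for 6 of them, beside 21.0% of all genes. In adipogenic KO libraries 4 rose (Pdgfrb, 0.82, Eng, 0.40, Prrx1, 0.39, and Itgb1, 0.20) and 2 fell (Ly6a, -0.90, and Cxcl12, -0.39). Over all genes 16.7% were called higher and 16.5% lower there, so the number of stromal markers that fell was near that share. The part of stromal cell content in the contractile gene levels was not tested.

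**Figure D3:**
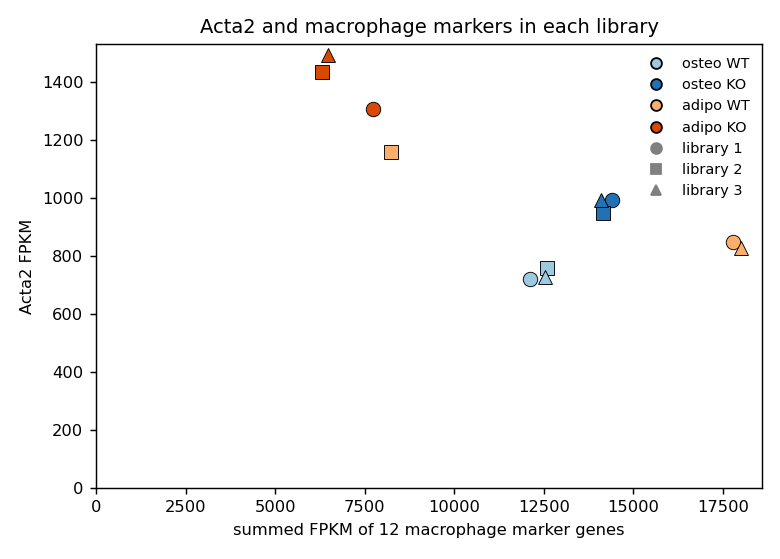
Acta2 level (vertical axis, FPKM) against the summed FPKM of 12 macrophage markers (horizontal axis), 1 point per library, colours giving the group and symbols the library number. Adipogenic WT library 2 lies near the adipogenic KO libraries and away from WT libraries 1 and 3, and the osteogenic KO libraries lie above and to the right of the osteogenic WT libraries.

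The difference between KO and WT was compared between the media by the interaction of genotype and medium. Lmod1 alone among the 9 passed, with a difference that was larger by 0.82 in adipogenic medium (SE 0.20, adjusted p = 0.0189). For the other 8 the interaction ran from -0.29 (Tagln, adjusted p = 0.168) to 0.27 (Tpm2, adjusted p = 0.393), with 4 of them above 0. Over all genes tested 10.9% had a called interaction above 0 and 9.58% one below 0. The call for Lmod1 was lost without adipogenic WT libraries 1 and 3 together (0.51, adjusted p = 0.0941), when those of Actg2 (-0.59), Tagln (-0.51) and Tpm1 (-0.44) passed below 0. Without adipogenic WT library 2, 5 genes passed, all above 0, among them Tpm2 (0.48), Myl9 (0.44), Cnn1 (0.41) and Acta2 (0.34) beside Lmod1, so this comparison rests on that library. Without adipogenic WT library 1, 2 passed, Lmod1 above 0 and Tagln below 0 (-0.40, adjusted p = 0.0318).

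The media were also compared within each genotype, and these comparisons share their libraries with those of the genotypes. In WT libraries 3 of the 9 were higher in adipogenic than in osteogenic medium, Cnn1 (0.70, SE 0.15, adjusted p = 0.0113), Actg2 (0.62, SE 0.14, adjusted p = 0.0143) and Cnn2 (0.39, SE 0.10, adjusted p = 0.0192), against 10.5% of all genes called higher. In 5 of the 9, with Acta2 and Tpm2 in addition, the adipogenic WT libraries all lay above the osteogenic WT libraries, as for 16.2% of all genes. The calls were lost when only the 6 WT libraries were fitted (none of the 9 in limma, 3 with an unadjusted p under 0.05) or when libraries were rescaled to the same sum of FPKM (none, 2 with an unadjusted p under 0.05), while limma voom called 4. Without osteogenic WT library 1 only Cnn1 was called, and without adipogenic WT libraries 1 and 3 together 8 were.

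In KO libraries 5 of the 9 were higher in adipogenic medium, against 13.9% of all genes. These were Lmod1 (0.95, SE 0.14, adjusted p = 0.00102), Cnn1 (0.91, SE 0.15, adjusted p = 0.00178), Tpm2 (0.63, SE 0.15, adjusted p = 0.0100), Acta2 (0.53, SE 0.11, adjusted p = 0.00633) and Myl9 (0.47, SE 0.15, adjusted p = 0.0346). The call of Myl9 was lost without any single osteogenic library and without adipogenic KO library 2 or 3, with adjusted p of 0.0501 to 0.116. Actg2 (0.42, adjusted p = 0.0503) and Cnn2 (0.26, adjusted p = 0.0656) missed the test with groups that did not overlap, so that 7 of the 9 were apart, as were 26.0% of all genes. Tpm1 was at 129.0 ± 4.43 FPKM in osteogenic and 131.7 ± 2.52 FPKM in adipogenic KO libraries, and Tagln at 3.34 ± 0.14 FPKM in both (SD, n = 3).

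For 8 of the 9 genes the group means had the same order, osteogenic WT below adipogenic WT below osteogenic KO below adipogenic KO, and for Cnn1 the middle pair changed places. Osteogenic WT and adipogenic KO libraries, the ends of the order, did not overlap for any of the 9, and the ratio of their means ran from 1.55 (Tpm1) to 2.84 (Cnn1). The middle neighbours, adipogenic WT and osteogenic KO, overlapped for 8 of the 9, with Tpm1 the exception. The spread within groups was uneven, since the coefficient of variation was 0.419% to 8.60% in the osteogenic groups, 13.0% to 27.3% in adipogenic WT and 1.91% to 17.0% in adipogenic KO libraries.

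The non-muscle and striated relatives of these genes were chosen as a list of 14, of which 10 were tested. In osteogenic medium 2 of the 10 rose, Cnn3 (calponin 3, 0.44) and Actg1 (cytoplasmic γ-actin, 0.35), beside 4.94% of all genes, with a median of 0.16. The differences of 9 of the 10 were above 0, and 7 had all KO libraries above all WT libraries, beside 21.0% of all genes. In adipogenic medium 2 rose and 5 fell, with a median of -0.20. Over all genes tested 16.7% were called higher and 16.5% lower, so the number that rose was near that share. The members that fell by most were Tagln2 (transgelin 2, -0.83, adjusted p = 0.00235), Actb (cytoplasmic β-actin, -0.52, adjusted p = 0.00993) and Tpm3 (-0.34, adjusted p = 0.00270), and Cnn3 rose (0.43, adjusted p = 0.00462). The interaction was called below 0 for 5 of the 10, beside 9.58% of all genes, namely Tagln2 (-1.02), Actb (-0.67), Actg1 (-0.62), Tpm4 (-0.48) and Tpm3 (-0.28). These relatives are also made by blood cells, and Actb was at 2632, 1781 and 2536 FPKM in adipogenic WT libraries, so that within this group it was lowest in library 2, as Lyz2 was (13878.5, 5456.3 and 14411.5 FPKM). The part of macrophages in these levels was not tested.

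Within the 6 actin genes the share of the summed FPKM that was Acta2 differed between groups, a description chosen after the values were seen. It was 25.5% ± 0.37 in osteogenic WT and 27.97% ± 0.55 in osteogenic KO libraries, and 22.9% ± 6.07 in adipogenic WT and 36.9% ± 2.39 in adipogenic KO libraries (SD, n = 3). The adipogenic WT libraries were at 19.5%, 29.9% and 19.2%, and the KO libraries at 34.2%, 38.0% and 38.5%, so the groups did not overlap. Tpm1 and Tpm2 together made up 34.5% ± 0.30 of the 4 tropomyosin genes in osteogenic WT and 41.5% ± 0.99 in osteogenic KO libraries, and 31.9% ± 7.55 in adipogenic WT and 46.9% ± 2.25 in adipogenic KO libraries. Cnn1 and Cnn2 made up 71.2% to 75.4% of the 3 calponin genes on average in every group.

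**Figure D4:**
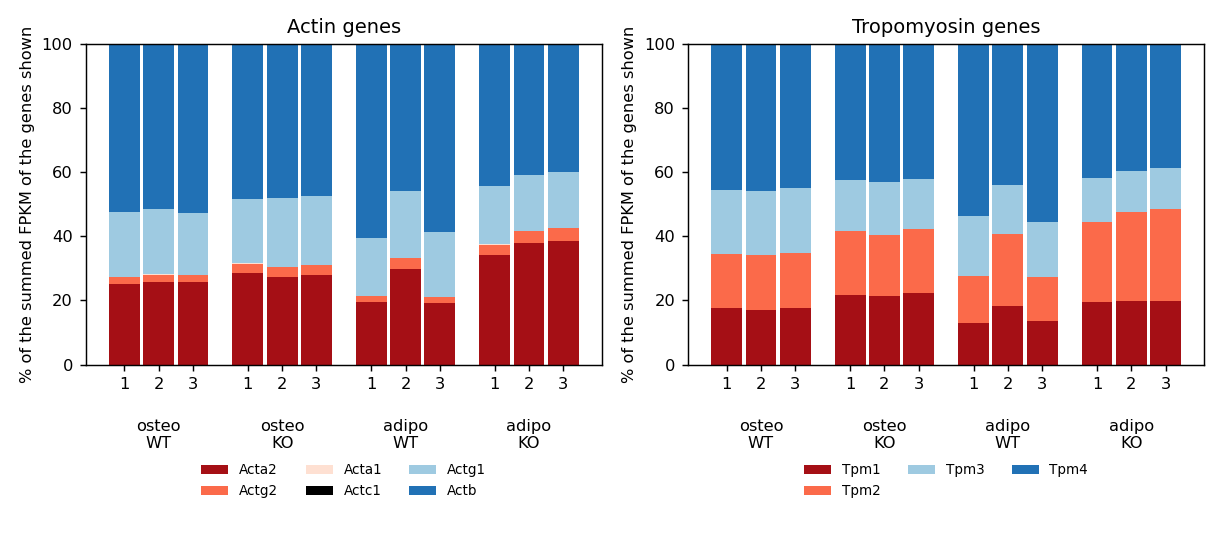
Share of each gene in the summed FPKM of 6 actin genes (left) and 4 tropomyosin genes (right), in percent, 1 stacked bar per library with the library number below it. Dark and light red mark the contractile members, Acta2 and Actg2 or Tpm1 and Tpm2; Acta2 took 34.2% to 38.5% of the actins in adipogenic KO libraries and 19.2% to 29.9% in adipogenic WT libraries.

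Of 20 further smooth muscle contractile genes 14 were tested. In osteogenic medium 6 of the 14 rose, beside 4.94% of all genes, with a median of 0.36. They were led by Csrp2 (a LIM protein of the cytoskeleton, 0.82, adjusted p = 0.00442), Pdlim7 (a PDZ and LIM protein of stress fibres, 0.52, adjusted p = 0.00284), Palld (palladin, an actin bundling scaffold, 0.48, adjusted p = 0.0409) and Cald1 (caldesmon, an actin and myosin binding protein, 0.40, adjusted p = 0.00202). In adipogenic medium 9 of the 14 rose and Smtn (smoothelin) fell (-0.25, adjusted p = 0.0212), with a median of 0.47. Over all genes 16.7% were called higher and 16.5% lower there. Smtn had risen in osteogenic medium (0.33, adjusted p = 0.0172), and its interaction was -0.58 (adjusted p = 0.00311). The rises were led by Tns1 (tensin 1, 1.15, adjusted p = 0.000839), Mylk (myosin light chain kinase, 1.13, adjusted p = 0.000699), Csrp2 (0.82, adjusted p = 0.00130) and Myh11 (smooth muscle myosin heavy chain, 0.78, adjusted p = 0.00132). Myh11, which defines mature smooth muscle cells, stayed between 0.180 and 0.722 FPKM in 9 libraries and reached 1.121, 1.58 and 1.81 FPKM in adipogenic KO libraries, far below Acta2 in the same libraries. In osteogenic medium 4.15% of all genes tested were called lower, and none of these 14 was, which is near that share. For 12 of the 14 all osteogenic KO libraries lay above all WT libraries, beside 21.0% of all genes. Tns1 (-0.59, adjusted p = 0.0622) and Filip1l (-0.19, adjusted p = 0.498) had all KO libraries below all WT libraries there. Tns1 thus had opposite directions in the media.

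**Figure D5:**
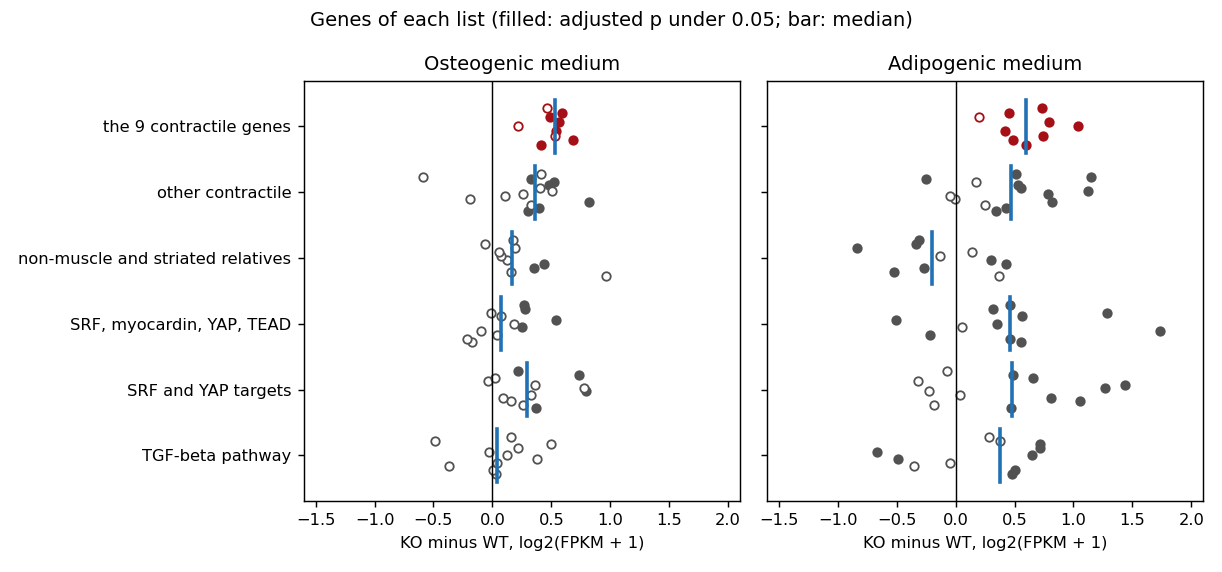
Difference of log2(FPKM + 1), KO minus WT, of each tested gene of 6 lists in osteogenic (left) and adipogenic medium (right); filled points passed an adjusted p of 0.05 in limma and the blue bar is the list median. The medians of the 9 contractile genes are 0.53 and 0.59, and that of the non-muscle and striated relatives is below 0 in adipogenic medium.

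Of 11 transcription factors and cofactors that act on these genes, 4 rose in osteogenic medium, beside 4.94% of all genes, with a median of 0.07, namely Tead2 (a TEAD factor, 0.54, adjusted p = 0.00200), Wwtr1 (TAZ, 0.28, adjusted p = 0.0468), Yap1 (0.27, adjusted p = 0.0344) and Srf (0.25, adjusted p = 0.0295). In adipogenic medium 8 of the 11 rose and 2 fell, beside 16.7% and 16.5% of all genes, with a median of 0.46. Myocd (myocardin, the SRF partner of smooth muscle) stood at 0.218 to 0.610 FPKM in the 9 libraries of the other groups and at 2.96, 4.03 and 3.95 FPKM in adipogenic KO libraries. Adipogenic KO libraries thus stood apart from all others (1.73, SE 0.13, adjusted p = 1.2e-05), and the interaction of Myocd was 1.83 (adjusted p = 0.000124). Tead4 had a like pattern, at 0.463 to 1.16 FPKM elsewhere and 2.96, 2.83 and 3.39 FPKM in adipogenic KO libraries (1.28, adjusted p = 0.000369), whereas Tead2 fell (-0.51, adjusted p = 0.000779). Tead3 (0.56, adjusted p = 0.00151) and Klf4 (0.56, adjusted p = 0.0146) rose.

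Of 12 immediate targets of SRF and YAP, all tested, 4 rose in osteogenic medium (median 0.29, 4.94% of all genes called higher), with Egr2 (0.80), Thbs1 (thrombospondin 1, 0.73), Amotl2 (0.37) and Zyx (zyxin, 0.22). In adipogenic medium 7 rose (median 0.48, 16.7% of all genes called higher), led by Fhl2 (1.44, adjusted p = 0.000777), Fhl1 (1.27, adjusted p = 0.0110), Ccn1 (1.06, adjusted p = 0.000337) and Ccn2 (connective tissue growth factor, 0.81, adjusted p = 0.000258).

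TGF-β signalling induces contractile genes in many mesenchymal cells. Of 11 ligands, receptors and feedback genes of this pathway, none passed limma in osteogenic medium (4 had an unadjusted p under 0.05, and limma voom called none), with a median of 0.04. In adipogenic medium 5 rose and 2 fell (median 0.38), beside 16.7% of all genes called higher and 16.5% called lower. Tgfb3 (0.72, adjusted p = 0.0178), Tgfb2 (0.72, adjusted p = 0.000195) and the feedback inhibitor Smad7 (0.65, adjusted p = 6.5e-05) rose, and Tgfb1 fell (-0.67, adjusted p = 0.00347), being at 82.3, 58.8 and 79.0 FPKM in WT and at 54.0, 41.0 and 41.9 FPKM in KO libraries.

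Markers of other contractile cells were low. Skeletal muscle markers summed to 0.308 to 1.29 FPKM, none of the 10 passed the filter on low values, and 4 were at 0 in every library. Pericyte and vascular smooth muscle markers summed to 6.82 to 7.42 FPKM in osteogenic WT and 8.10 to 10.6 FPKM in osteogenic KO libraries, and to 5.90 to 7.54 FPKM in adipogenic WT and 12.2 to 15.7 FPKM in adipogenic KO libraries. The sums were thus higher in KO libraries in both media without overlap. Of the low markers, Kcnj8, Abcc9 and Higd1b stayed between 0 and 0.211 FPKM in all libraries. Rgs5 was also too low to be tested, but its genotypes did not overlap. It was at 0.118 to 0.218 FPKM in osteogenic WT and 0.304 to 0.471 FPKM in osteogenic KO libraries. In adipogenic medium it was at 0.179 to 0.254 FPKM in WT and 0.694 to 0.820 FPKM in KO libraries. Of the 9 markers 5 were tested. Mcam rose in osteogenic medium (0.62), beside 4.94% of all genes. In adipogenic medium Mcam (1.105), Notch3 (1.05), Myh11 (0.78) and Cspg4 (0.67) rose, beside 16.7% of all genes. Cox4i2, also tested, was not called there and was lower on average in KO libraries. It stood at 2.86, 1.33 and 2.43 FPKM in adipogenic WT and at 0.946, 1.62 and 2.27 FPKM in adipogenic KO libraries, with overlap. Endothelial markers summed to 6.79 to 7.185 FPKM in osteogenic WT and 12.3 to 12.9 FPKM in osteogenic KO libraries, and to 5.61 to 6.53 FPKM in adipogenic WT and 9.13 to 11.05 FPKM in adipogenic KO libraries, so that they also moved with the genotype. The part of these cells in the contractile gene levels was not tested. Adipocyte markers summed to 137.0 to 152.8 FPKM in osteogenic WT and 74.8 to 85.9 FPKM in osteogenic KO libraries, and to 67.0 to 85.35 FPKM in adipogenic WT and 105.5 to 121.2 FPKM in adipogenic KO libraries, so the KO libraries were lower in the first medium and higher in the second. Adipoq, Plin1, Cidec and Retn did not pass the filter on low values and were at most 0.600 FPKM in any library. The other 2 of the 6 adipocyte markers, Lpl (53.8 to 117.4 FPKM) and Fabp4 (12.7 to 39.2 FPKM), made up nearly all of the sum. Both fell in osteogenic and rose in adipogenic KO libraries, so the sum describes these 2 genes. The part of adipocytes in it was not tested.

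The genes outside the 9 whose pattern over the 12 libraries was most like theirs were ranked by the Pearson correlation with the mean of their standardised levels, given as a description, since all points share the 4 groups and the same libraries. The leading gene was Actn1 (α-actinin 1, which cross-links actin filaments, r = 0.991), followed by Ptprf (a receptor phosphatase, 0.988), Tgfb1i1 (Hic-5, a focal adhesion protein, 0.983), Sdc2 (syndecan 2, 0.980), Lima1 (an actin binding LIM protein, 0.979), Aoc3 (0.979), Cdkn2b (0.975), Itgb1 (integrin β1, 0.974), Nid1 (nidogen 1, 0.974) and Clic4 (0.973). Actn1 stood at 109.7 to 114.3 FPKM in osteogenic WT, 133.1 to 143.9 FPKM in osteogenic KO, 120.8 to 145.3 FPKM in adipogenic WT and 158.1 to 169.3 FPKM in adipogenic KO libraries. For Acta2 alone the closest genes were Tpm2 (0.997), Ptprf (0.984), Cnn1 (0.981), Clic4 (0.981) and Actn1 (0.979). Among the 9 themselves, the correlation with the shared mean ran from 0.987 (Acta2) down to 0.903 (Lmod1) and 0.871 (Tagln). Each of the 9 is part of that mean, so these values cannot be set beside those of outside genes.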

How the data were processed

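RNA-seq of bone marrow MSCs gave 12 libraries in 4 groups of 3, assigned by their labels. The authors deposited 1 table of FPKM; library preparation is described with a NEBNext Ultra kit, and the submitters' processing notes list mm9 and Bowtie 0.12.2, whereas the study's methods list HISAT2 and Ballgown. The FPKM scaling, annotation, strand and filters are not given in the sources used here. Gene lengths matched GENCODE M21 on GRCm38: 98.2% to 98.4% of values under 30 fragments were whole multiples of 1 fragment within 2% of a fragment, against 4% by chance, which gave the fragments per gene. Fragments copied by amplification are not independent molecules, so limits of depth cover counting error only. Symbols were matched for 54409 of 54532 identifiers.

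Tests used limma 3.58.1 in R 4.3.3 with a trend of variance on level, fitted to log2(FPKM + 1) of all 12 libraries as 4 group means, for genes with at least 1 FPKM in at least 3 libraries. The pseudocount understates changes of low genes. Adjusted p-values are Benjamini-Hochberg over all 12871 genes, with 0.05 as threshold. Of the companion lists, the text names up to 4 genes with the largest differences among those called; genes named beyond these were chosen after their values were seen. A further companion list is not reported here. The 9 genes and all lists were chosen with earlier results of these data known. Alternatives were a pseudocount of 0.1, no filter, rescaling to equal sums of FPKM, no trend, only the libraries compared, replicate blocks, limma voom on recovered fragments and each library left out. The fit was tested on simulated data. Promoter sequences are from RefSeq. Figures were drawn with matplotlib 3.10.9.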

Additional observations from a re-analysis of the deposited data

Results flagged for a closer look

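Lmod1 stands here because its interaction of genotype and medium passed the test. The interaction was 0.82 on the log2(FPKM + 1) scale (SE 0.20, adjusted p = 0.0189 in limma), from 0.22 in osteogenic and 1.04 in adipogenic medium. All 3 adipogenic KO libraries, at 13.4, 17.6 and 18.8 FPKM, were above the 9 other libraries, which ran from 6.44 to 9.50 FPKM. Over all genes tested 10.9% had a called interaction above 0, so that 1 of the 9 was near this share. The interaction of Lmod1 was 0.51 without adipogenic WT libraries 1 and 3 together, which leaves 1 library in that group.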

How the results depend on the processing

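Rescaled to the same sum of FPKM, 0 of the 9 genes were called in osteogenic medium (limma, 8 at an unadjusted p under 0.05, 6 by limma voom) and 0 for adipogenic against osteogenic medium in WT libraries (2 at an unadjusted p under 0.05, 4 by limma voom), and the interactions of Cnn2 (0.074) and Tpm1 (0.053) changed sign. The median interaction of all genes moved to 0.16 under this rescaling, and both genes stayed below it. Fitted to the compared libraries only, 2 were called in adipogenic medium and 0 between the media in WT libraries (3 at an unadjusted p under 0.05). Without adipogenic WT libraries 1 and 3 together, chosen after seeing the data, 4 were called in adipogenic medium, 3 for the interaction and 8 between the media in WT libraries. There, Tagln in adipogenic medium (-0.025) and the interactions of Acta2 (-0.13), Cnn1 (-0.20), Myl9 (-0.19) and Tpm2 (-0.16) changed sign. With 1 library left out, the number called ran from 2 to 8 in osteogenic medium, 7 to 9 in adipogenic medium, 1 to 5 for the interaction, 1 to 4 between the media in WT and 4 to 7 in KO libraries. Signs changed within these ranges for the interaction of Tpm1 (-0.25 to 0.0062, above 0 without adipogenic WT library 2), the medium difference of Lmod1 in WT libraries (-0.025 to 0.22, below 0 without adipogenic WT library 2) and that of Tagln in KO libraries (-0.023 to 0.029, below 0 without osteogenic KO library 1 or adipogenic KO library 1 or 3). Over all single-gene values, 286 of 324 under other settings and 500 of 585 with libraries left out kept direction and call.

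Replicate numbers are shared by the groups, but not every same-numbered pair deviated together (r from -0.0375 to 0.0576 between genotypes in osteogenic and -0.286 to 0.466 in adipogenic medium). With 3 libraries per group these values cannot tell whether libraries of the same number shared a culture or preparation. With that number as a replicate block, 4 of the 9 were called in osteogenic medium, 8 in adipogenic medium and 1 for the interaction. With genotype and number as a replicate block between the media, 0 were called in WT (limma, 4 at an unadjusted p under 0.05) and 6 in KO libraries. The number of all genes called moved by over 1.5 times in several of these settings, in osteogenic medium from 1170 to 526 when rescaled, 3418 with the compared libraries only and 532 to 2854 with 1 library left out, in adipogenic medium from 4276 to 1671 with the compared libraries only, so that the order of the media was then the opposite, and between the media in WT libraries from 2935 to 490 with those libraries only, 0 with the block (limma, 3034 at an unadjusted p under 0.05, and 2726 by limma voom without the block) and 1289 without adipogenic WT libraries 1 and 3.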

Other observations

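Further contractile genes that did not reach 1 FPKM in 3 libraries were not tested and are given as recovered fragments, chosen after their values were seen. Synpo2 (synaptopodin 2, of smooth muscle and Z discs) had 75, 65 and 58 fragments in osteogenic WT, 190, 179 and 198 in osteogenic KO, 150, 208 and 167 in adipogenic WT and 219, 213 and 165 in adipogenic KO libraries, so that only osteogenic WT stood apart. Des (desmin, the muscle intermediate filament protein) had 4 to 26 fragments in the 9 libraries of the other groups and 43, 38 and 32 in adipogenic KO libraries. Itga8 (integrin α8) had 11 to 42 fragments in those 9 libraries and 60, 67 and 75 in adipogenic KO libraries. Pln (phospholamban) had at most 1 fragment and Pdlim3 at most 3 fragments in any library, which is within the limit that a count of 0 allows.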
